A study of Mus musculus with 6 samples.

Results

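The genes described here carry the mouse symbol Zfp followed by a number, a naming family made up mostly of C2H2 zinc finger genes. They were taken from a table of 23420 genes measured in mouse eosinophils, granulocytes that matured in culture from wild-type (WT) bone marrow. A gene was kept when 3 or more of the 6 libraries had a normalized count of at least 10. Zfp36, which encodes an RNA-binding protein of another finger type, was left out. This gave 207 genes of the 332 with such a name. The libraries came from cells given IL-33 at 2.5 ng/mL for 3 hours (IL-33, 3 libraries) or phosphate-buffered saline (PBS, 3 libraries). In both groups FLT3 ligand with stem cell factor (SCF) had expanded the marrow, IL-5 at 20 ng/mL had matured it, and dead cells were removed before use on day 14. Separate mice or cultures are not named in the labels for the libraries of a group. The spread behind each p-value is therefore that of these libraries only and may be technical.

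C2H2 zinc fingers are short protein loops held by a zinc ion, and several in a row let a protein read a DNA sequence. Many genes of the family also encode a KRAB domain, which recruits the co-repressor KAP1 (Trim28) and, through it, enzymes that lay down repressive histone marks, above all over transposable elements. KRAB zinc finger genes often lie in clusters of related copies, and their transcripts are rich in A and T. Other family members lack KRAB and act as general transcription factors, as partners of chromatin complexes or in ribosome assembly.

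The genes were thus chosen by their levels in all 6 libraries. Of the 207 genes, 173 were at 10 or more in every library. A further 7 reached 10 in the 3 PBS libraries only and 1 in the 3 IL-33 libraries only, so these had to differ between the groups. Just inside the limit lay Zfp40, at 10.1, 13.1 and 11.9 in PBS replicates 1 to 3 and 8.09, 0 and 3.39 in IL-33 replicates 1 to 3. Just outside lay Zfp760, at 8.54, 9.46 and 11.2 in PBS and 9.89, 1.54 and 3.39 in IL-33. The other genes under the limit made up a total of 125 with Zfp760, of which 27 had no read in any library.

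Recovered reads per library ranged from 8218303 to 10785521, and 31403 to 59993 of them fell on the 207 genes. Rn45s, the ribosomal RNA precursor gene, took 13.7% to 24.8% of the reads in the PBS libraries, 24.3% in IL-33 replicate 1, and 59.6% and 54.8% in IL-33 replicates 2 and 3. Counting error is therefore larger in IL-33 replicates 2 and 3, where 1 read was worth 1.54 and 1.69 normalized counts, against 0.699 to 0.777 in PBS and 0.899 in IL-33 replicate 1. Of the eosinophil markers, 9 were in the table and none was at 0 throughout. Their summed normalized count was 39420 to 51805 in PBS and 13245 to 24779 in IL-33, and 8 of the 9 were called lower. The 12 markers of monocytes, macrophages and dendritic cells summed to 2274 to 2505 in PBS and 4572 to 5161 in IL-33. Of these, only 4 passed the filter, 1 was called higher and 1 lower, and Marco was at 0. The sum thus rests mainly on few genes. Neutrophil markers (8 genes, 2 called lower) summed to 2654 to 3236 in PBS and 2090 to 2635 in IL-33, and mast cell and basophil markers (9 genes, 2 lower, Mcpt4 at 0) to 885 to 990.2 and 486 to 852. Lymphoid markers (7 genes, Ncr1 at 0) summed to at most 79.2. Whether these shifts bear on the Zfp genes was not tested, and in bulk RNA fewer cells of a type and less RNA per cell cannot be told apart.

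IL-33 changed the level of a minority of the Zfp genes, in both directions. Of the 207, IL-33 raised 21 and lowered 24 (limma on log2(normalized count + 1), Benjamini-Hochberg adjusted p under 0.05 over the 10544 genes tested), and 162 were not called. That is 10.1% higher and 11.6% lower, against 17.4% and 14.4% of all genes tested, so both shares lay below the background, and the difference from it was not tested. The median log2 fold change was −0.08 over the family and −0.03 over all genes tested. Fold changes ran from −2.89 to 3.10 on the log2 scale, and 14 of the higher and 20 of the lower genes passed 2-fold. The shares of all genes that passed 2-fold are not given, so these counts are not read as a trait of the family. All 45 called genes moved in the direction of their call in each of the 3 IL-33 libraries. This is no separate support, since the calls were made on these same libraries. For the 5 called genes that passed the filter through PBS alone and the 1 through IL-33 alone, the filter had set it. The balance depends on the scaling: with libraries scaled to equal totals 2 Zfp genes were higher and 120 lower (2.5% and 50.1% of all genes), with equal totals without Rn45s 8 and 61 (9.02% and 33.9%). These scalings moved the median of all genes from −0.03 to −1.06 and −0.45, and that of the Zfp genes to −1.11 and −0.50.

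The higher genes were more abundant than the lower ones, with a median normalized count over the 6 libraries of 296 against 38.5. Across the family that median was 84.3, against 144 for all genes tested. Among genes with a mean of at least 50, 12.4% of 129 Zfp genes were higher and 7.75% lower, against 21.2% and 13.8% of 7640 genes. Under that mean, 6.41% of 78 Zfp genes were higher and 17.9% lower, against 7.58% and 16.2% of 2904 genes. The share of lower calls among low Zfp genes was thus near that of other low genes, and both shares among abundant ones lay below those of other abundant genes.

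The counts depended on single libraries. Without IL-33 replicate 1, 44 Zfp genes were higher and 54 lower (28.3% and 28.2% of all genes), and all 45 genes called with every library were among them. Leaving out another library lowered both counts. When IL-33 replicate 2 was dropped, 7 were higher and 13 lower (8.99% and 7.26% of all genes), and when IL-33 replicate 3 was dropped, 13 and 18 (14% and 11.5%). Dropping a PBS library gave 9 and 8 for the first (10.7% and 6.24%), 6 and 5 for the second (7.6% and 3.82%) and 4 and 5 for the third (6.7% and 3.36%). Without each library in turn, 8 genes were called every time, 4 higher and 4 lower. The share of all genes called every time is not given, so this count is not read as a trait of the family. These were Zfp263, Zfp608, Zfp719 and Zfp819, which were higher (Zfp819 through its selection, as it reached 10 in IL-33 alone), and Zfp652, Zfp831, Zfp949 and Zfp961, which fell.

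**Figure D1:**
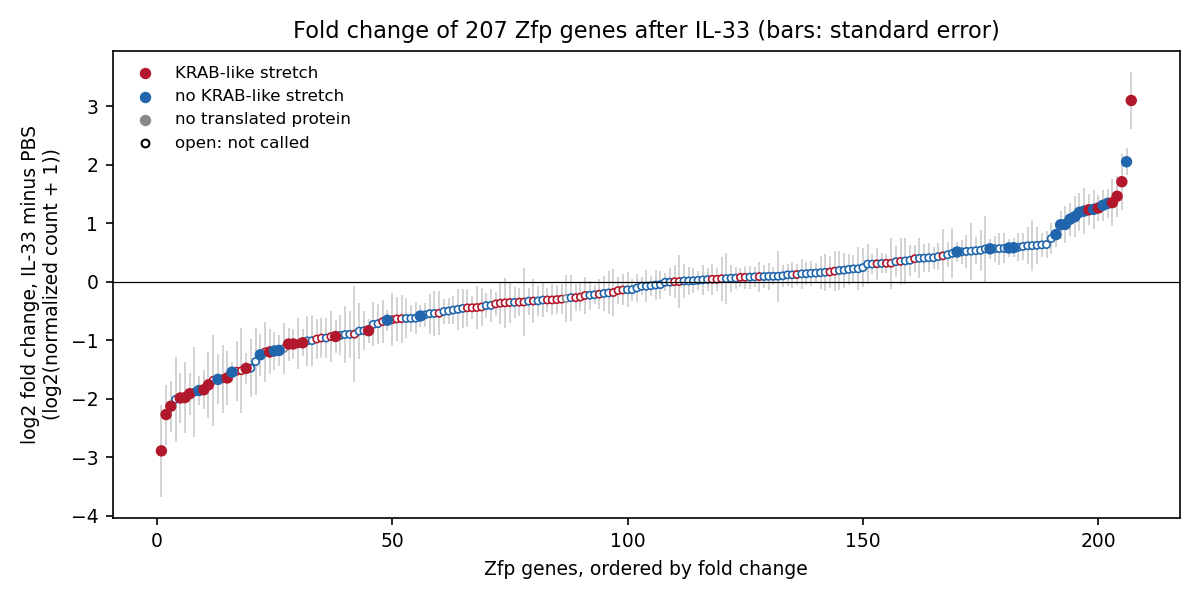
Log2 fold change (vertical axis, log2(normalized count + 1), IL-33 minus PBS) of each of the 207 Zfp genes in order (horizontal axis), with standard errors as bars. Filled points are the 45 called genes, red points encode a KRAB-like stretch, and most called genes at the lower end are red.

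Zfp263 had the largest rise among the genes with a mean of at least 20. It encodes a DNA-binding protein of the SCAN zinc finger group (chromosome 16, 3744093 to 3750790). Its normalized counts were 639, 524 and 472 in PBS replicates 1 to 3 and 1659.7, 2351 and 2899.8 in IL-33 replicates 1 to 3. Every IL-33 library lay far above every PBS library. The log2 fold change was 2.05 (SE 0.23, adjusted p = 8.87e-04, limma), and 2.11 after removal of the GC content and transcript length trends within libraries. Its call held in every alternative that was run.

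Zfp622, a cytoplasmic factor of large ribosomal subunit maturation (chromosome 15, 25984366 to 25998481), was at 899, 763 and 673 in PBS and 1279, 2101 and 2617 in IL-33. The groups did not overlap, and the log2 fold change was 1.31 (SE 0.27, adjusted p = 0.00988, limma). Dropping PBS replicate 3 ended that call (1.21, limma adjusted p = 0.0555). Zfp608, reported as a repressor of the recombination genes Rag1 and Rag2 in developing T cells, was at 276, 215 and 162 in PBS and 659, 551 and 436 in IL-33 (1.34, SE 0.25, adjusted p = 0.0068, limma). Here IL-33 replicate 1 was the highest library, the reverse of Zfp622.

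Zfp719, which encodes 13 fingers and a KRAB-like stretch (chromosome 7, 43579610 to 43593235), went from 56.7, 48.7 and 44.7 in PBS to 138, 103 and 124 in IL-33. The IL-33 libraries lay close together and well above PBS (1.26 on the log2 scale, SE 0.22, limma adjusted p = 0.00553). Zfp513, a transcription factor studied in the retina (chromosome 5, 31198981 to 31202303), was at 409, 433 and 372 in PBS and 574, 935 and 1620.2 in IL-33. Its IL-33 libraries were widely spread but all above PBS, and its log2 fold change of 1.24 (limma, SE 0.34, adjusted p = 0.0266) was 0.65 with the GC and length trends removed. Zfp513 lost its call without IL-33 replicate 2 (1.25) or without PBS replicate 1 (1.25), 2 (1.29) or 3 (1.18).

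Zfp819 had the largest fold of the family and is named here after its values were seen, because its mean lay under 20. It encodes a KRAB zinc finger protein known from embryonic stem cells, where it binds KAP1. It had 32, 10 and 10 reads in IL-33 replicates 1 to 3 and 3, 2 and 1 in PBS replicates 1 to 3. After scaling, the ratio was 15.1 (exact 95% bounds of 6.48 and 43.0, for counting error alone). It is the 1 gene that passed the filter through the IL-33 libraries alone, so the separation of the groups was set by the selection, and its log2 fold change of 3.10 (SE 0.49) is a description.

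Zfp764, Zfp747 and Zfp689 rose as neighbours. They lie close together on chromosome 7 (127403668 to 127406822, 127372537 to 127376050 and 127442136 to 127449158), each with a KRAB-like stretch. Zfp764 was at 28.7, 10.2 and 13.3 in PBS and 30.6, 63.1 and 81.4 in IL-33, so that IL-33 replicate 1 barely exceeded PBS replicate 1 (1.71 on the log2 scale, SE 0.48, limma adjusted p = 0.0292). Zfp747 was at 62.1, 44.4 and 45.4 in PBS and 87.2, 138 and 225 in IL-33 (1.46, SE 0.35, adjusted p = 0.0167, limma). Zfp689 was at 25.6, 22.6 and 28.7 in PBS and 35.1, 81.5 and 103 in IL-33 (1.35, SE 0.40, adjusted p = 0.0342, limma). In all of them IL-33 replicate 1 was the lowest and replicate 3 the highest IL-33 library. The calls were not stable: Zfp689 lost its call without IL-33 replicate 2 (1.21) or 3 (1.04) or any PBS library (1.36, 1.27 and 1.44 without PBS replicates 1, 2 and 3). For Zfp764 the call ended with any library but IL-33 replicate 1 or PBS replicate 1 dropped (1.42 to 1.60). For Zfp747 dropping IL-33 replicate 2 ended it (1.47), as did dropping the second (1.38) or last (1.39) PBS library.

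Zfp747 and Zfp764 are partial copies of each other, so their reads may not be told apart. Of the 50-base words in the annotated transcripts of Zfp747, 34.4% also occur in transcripts of another gene and 12.9% in those of Zfp764. For Zfp764 these shares were 27.1% and 14.7% (in Zfp747), while Zfp689 shared no such word with either. The 250 bases before their RefSeq start sites show the copying, with 219 of 243 aligned bases identical (90.1%). They are printed with those of Zfp263, which had the largest rise among genes with a mean of at least 20, each 5′ to 3′ on the gene's strand in build GRCm38.p6. Capitals mark matches, on either strand, to a loose form of the NF-kB site (GGG, any 5 bases, then CC), which was searched because IL-33 signals through NF-kB.
Zfp747 (minus strand, chr7:127376051-127376300): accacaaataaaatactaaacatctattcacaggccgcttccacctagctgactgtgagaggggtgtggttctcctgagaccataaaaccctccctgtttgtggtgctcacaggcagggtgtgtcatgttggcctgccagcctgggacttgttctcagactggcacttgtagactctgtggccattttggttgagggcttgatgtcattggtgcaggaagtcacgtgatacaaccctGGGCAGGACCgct
Zfp764 (minus strand, chr7:127406823-127407072): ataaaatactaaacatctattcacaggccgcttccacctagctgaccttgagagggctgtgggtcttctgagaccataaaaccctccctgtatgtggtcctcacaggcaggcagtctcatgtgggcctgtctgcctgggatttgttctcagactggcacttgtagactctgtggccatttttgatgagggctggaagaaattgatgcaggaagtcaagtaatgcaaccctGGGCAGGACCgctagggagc
Zfp263 (plus strand, chr16:3743849-3744098): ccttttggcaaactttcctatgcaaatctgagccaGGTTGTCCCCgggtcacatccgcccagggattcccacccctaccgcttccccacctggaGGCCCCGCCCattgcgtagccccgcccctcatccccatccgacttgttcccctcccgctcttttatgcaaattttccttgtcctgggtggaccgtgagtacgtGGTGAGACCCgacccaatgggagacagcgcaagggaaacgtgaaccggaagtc
Zfp747 and Zfp764 hold 1 match each, in the stretch they share, and Zfp263 holds 3. Such a match is common: in windows of 300 bases around the start (250 before and 50 after) it was found in 68.5% of the 8367 tested genes with a promoter sequence and in 61.5% of 169 Zfp genes. It was found in 11 of 16 higher and 12 of 18 lower Zfp genes. An ETS motif (CCGGAAG, either strand) was found in 20.1% of Zfp promoters and 20.5% of all, and a motif of the AP-1 type (TGANTCA) in 4.14% and 4.79%. A further 3 motifs were searched on both strands, NRF1 (its palindromic motif, in 3.55% and 2.26%), YY1 (AAGATGGCG, in 4.73% and 3.74%) and CRE (TGACGTCA, in 3.55% and 3.36%). Zfp promoters were poorer in CpG than those of all tested genes, with a median of 16 against 21 CpG in the window.

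Of the 8 genes with the largest falls, Zfp652 had the smallest standard error. It encodes a repressor that works with the co-repressor CBFA2T3 (chromosome 11, 95712673 to 95835115). Normalized counts were 607, 720.3 and 705 in PBS and 248, 208 and 239 in IL-33, with a wide gap between the groups. The log2 fold change was −1.54 (SE 0.17, adjusted p = 8.08e-04, limma), and −1.52 with the GC and length trends removed. Its call held in every alternative that was run. Of its exonic bases, 20.0% lie in exons of another gene.

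Zfp831 (chromosome 2, 174643534 to 174710832) went from 439, 499.8 and 606 in PBS to 103, 151 and 176 in IL-33 (−1.86 on the log2 scale, SE 0.24, limma adjusted p = 0.00161). The groups lay far apart. Zfp961, with 11 fingers and a KRAB-like stretch (chromosome 8, 71951038 to 71993792), was at 47.4, 68.4 and 78.3 in PBS and 14.4, 24.6 and 13.6 in IL-33 (−1.85, SE 0.33, adjusted p = 0.00619, limma). Zfp949, another KRAB-like gene with 11 fingers (chromosome 9, 88548020 to 88571061), was at 120.4, 169.5 and 122 in PBS and 45.9, 64.6 and 37.3 in IL-33 (−1.48, SE 0.27, adjusted p = 0.00654, limma). In neither did the groups overlap.

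Zfp182, a KRAB-like gene on chromosome X (21028939 to 21062316), was at 53.6, 57.5 and 61.5 in PBS and 25.2, 10.8 and 6.78 in IL-33. IL-33 replicate 1 lay between the other libraries, and the log2 fold change of −2.13 (limma, SE 0.44, adjusted p = 0.0101) was −1.59 with the GC and length trends removed. Dropping PBS replicate 3 ended that call (−2.08, limma adjusted p = 0.0547). The remaining genes with the largest falls were Zfp956 (−1.25), Zfp60 (−1.20) and Zfp53 (−1.18). Zfp60 and Zfp53 were not called once the GC and length trends had been removed (−0.87 and −0.60), or with IL-33 replicate 2 or 3 or any PBS library dropped. Zfp956 lost its call with IL-33 replicate 2 dropped (−0.88) or with any PBS library dropped. Of the 16 genes with the largest changes, 8 in each direction, 7 were called without each library in turn.

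**Figure D2:**
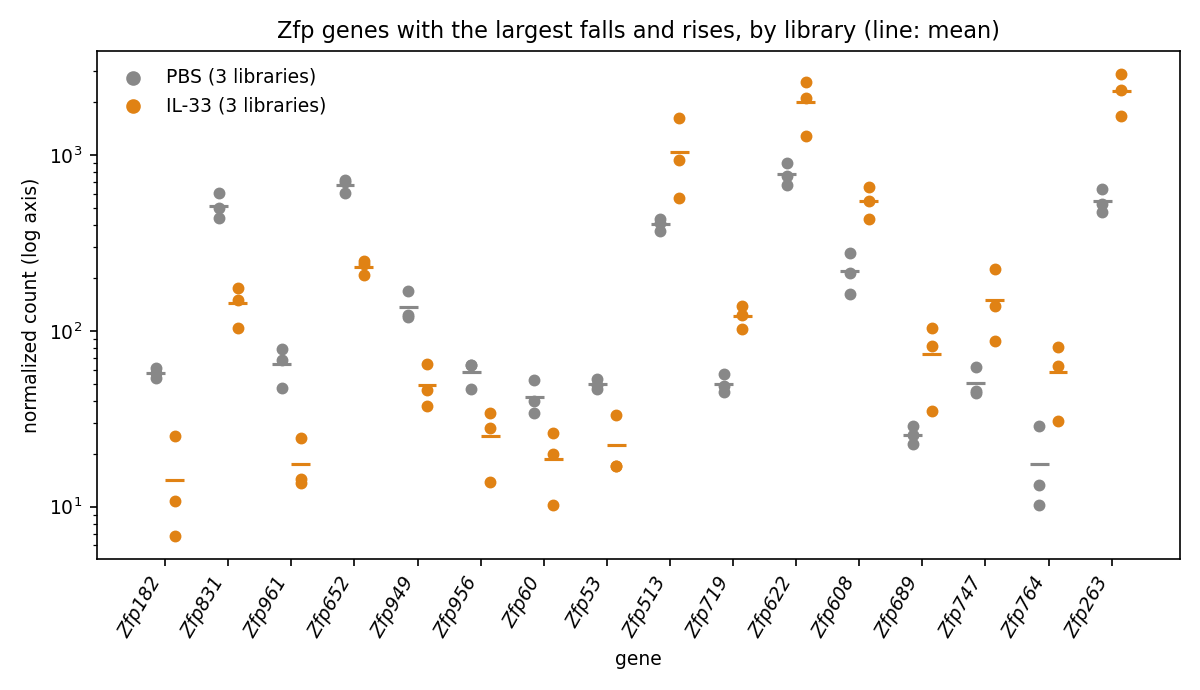
Normalized counts (vertical log axis) of the 8 Zfp genes with the largest falls and the 8 with the largest rises among called genes with a mean of at least 20, with PBS libraries in grey, IL-33 libraries in orange and group means as lines. Within each of these genes the points of the groups do not overlap, and the IL-33 points of Zfp182, Zfp689 and Zfp513 spread widest.

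The genes with the highest mean level per kb of exon over all libraries were Zfp217 (355 normalized counts), Zfp869 (324), Zfp263 (315) and Zfp513 (292), of which Zfp263 (2.05) and Zfp513 (1.24) are among the largest rises above. Per kb of exon, Zfp217 had the highest PBS level, 342 normalized counts, followed by Zfp869 at 267, Zfp704 at 180 and Zfp740 at 172. Zfp704 (log2 fold change 0.52, SE 0.28) and Zfp740 (−0.0063, SE 0.23) were not called. Zfp217, an oncoprotein of CtBP and CoREST repressor complexes (chromosome 2, 170108643 to 170148103), was at 2010, 2109 and 2181 in PBS and 1734, 2228 and 2830 in IL-33. Its groups overlapped, and its log2 fold change was 0.08 (SE 0.20, adjusted p = 0.77, limma; −0.96 with equal totals). Zfp869 was at 466, 383 and 427 in PBS and 653, 564 and 598 in IL-33 (0.51, SE 0.16, adjusted p = 0.0457, limma; −0.53 with equal totals). That call ended with any library but IL-33 replicate 1 dropped (0.44 to 0.58).

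The proteins split the family in a way the naming rule did not use. Translated from GENCODE transcripts, 205 of the 207 genes gave a protein, 193 of them with at least 1 C2H2 finger and a median of 9 fingers. A KRAB-like stretch, a match to a strict pattern from the core of the KRAB domain (FxDVxxxF[S/T]xxEW, x being any residue), was found in 76 of the 205 and not in 129. The 129 may thus hold KRAB genes that miss this pattern. All 161 genes of the table that hold the stretch also encode at least 1 finger. The KRAB-like genes had lower levels, with a median PBS level of 9.25 normalized counts per kb of exon against 28.7, more fingers (a median of 12 against 7) and a lower GC content of the transcript (a median of 42.9% against 51.0%, with 50.7% over all genes tested).

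Calls in KRAB-like genes were mostly lower, and calls in the other Zfp genes mostly higher. Of the 76 KRAB-like genes, 6 were higher and 16 lower (7.89% and 21.1%), and of the 129 without the stretch 15 were higher and 8 lower (11.6% and 6.20%). Over all genes tested these shares were 17.4% and 14.4%, so among the KRAB-like genes the lower share was above the background, and both shares of the others were below it. Of the 16 lower KRAB-like genes, 5 had passed the filter through PBS alone. The median log2 fold changes were −0.36 and 0.08, and 53 of 76 and 54 of 129 lay below 0. The difference between these classes was not tested. Under equal totals the medians were −1.35 and −0.95 and without Rn45s −0.77 and −0.34, so the median of the others turned negative with that of all genes. In IL-33 replicates 1, 2 and 3 the median difference from the PBS mean was −0.19, −0.49 and −0.48 for KRAB-like genes and −0.01, 0.10 and 0.15 for the others. With every library left out in turn, lower KRAB-like genes numbered 29 for IL-33 replicate 1, 10 for either other IL-33 library, 5 for PBS replicate 1, and 3 for either other PBS library. The shares of all genes called lower were 28.2%, 7.26% and 11.5% with IL-33 replicates 1, 2 and 3 dropped. With PBS replicates 1, 2 and 3 dropped they were 6.24%, 3.82% and 3.36%. The lower KRAB-like count was thus near the background with any PBS library dropped. For higher genes that lack the stretch, dropping IL-33 replicate 1, 2 or 3 gave 37, 4 or 9, and dropping PBS replicate 1, 2 or 3 gave 4, 3 or 2. The shares of all genes called higher were 28.3%, 8.99% and 14% for the IL-33 libraries and 10.7%, 7.6% and 6.7% for the PBS libraries.

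Several of the lower KRAB-like genes had very few reads after IL-33, and the following are named after their values were seen. Zfp101 (chromosome 17) had the lowest fold change of the family, at 21, 37 and 31 reads in PBS replicates 1 to 3 and 10, 0 and 1 in IL-33 replicates 1 to 3. It passed the filter through PBS alone, so a fall was set by the selection and is given as a description. The ratio after scaling was 4.65-fold lower (exact 95% bounds of 2.48 and 9.65, for counting error alone). Zfp128 was at 30.3, 29.1 and 25.2 in PBS and 4.50, 4.61 and 11.9 in IL-33 (normalized counts). Among its IL-33 libraries only replicate 3 reached 10, so its place in the family also depended on its PBS level. Zfp324 was at 25.6, 34.2 and 23.8 in PBS and 8.99, 6.15 and 5.08 in IL-33 (normalized counts). Like Zfp101, Zfp324 passed the filter through PBS alone, so its groups could not overlap. Of the 7 genes that did so, 5 were called lower, and all 5 were KRAB-like. In all, 9 of the 45 called genes had a mean under 20, and 8 of these fell.

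**Figure D3:**
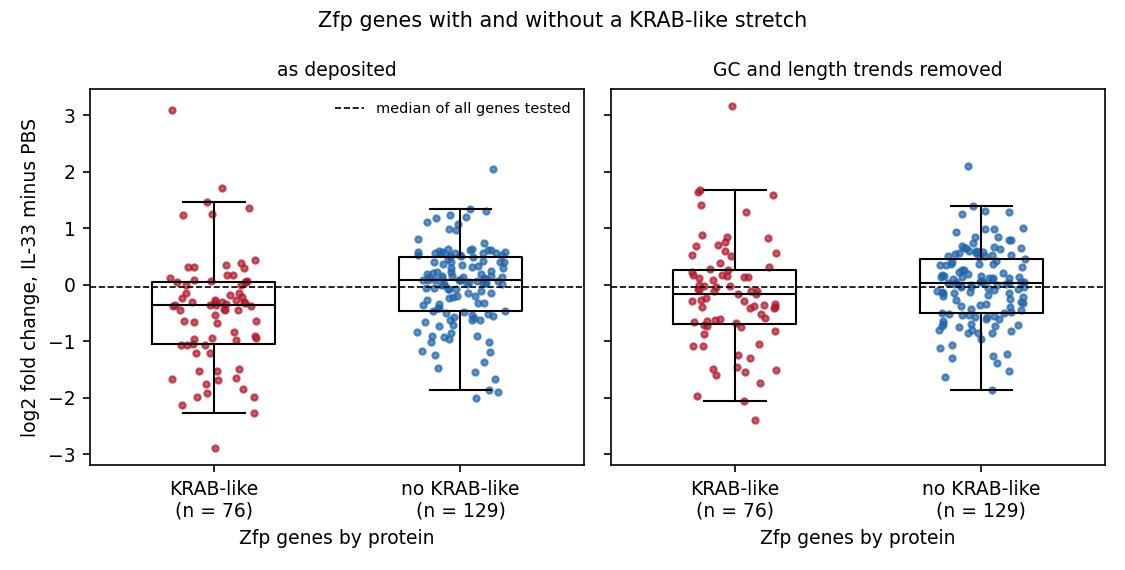
Log2 fold change (vertical axis, IL-33 minus PBS) of 76 Zfp genes with and 129 without a KRAB-like stretch, as deposited (left) and with the GC and length trends of each library removed (right). Boxes show quartiles, whiskers reach the farthest point within 1.5 box heights, points are genes, and the dashed line is the median of all genes tested. The KRAB-like box lies lower on the left, and the boxes are closer together on the right.

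GC content ran with the change in part of the IL-33 libraries. Across the 207 genes, Spearman's rho between GC content and the log2 difference from PBS was −0.03 in IL-33 replicate 1, 0.39 in replicate 2 and 0.51 in replicate 3. Across the 10436 tested genes with a known GC content it was 0.01, 0.30 and 0.39. These describe genes that share a library and a PBS mean, and genes are not independent replicates. Replicates 2 and 3 are also the libraries in which Rn45s took over 50% of the reads, and with that share as a covariate limma called 6 Zfp genes higher and 12 lower (8.67% and 6.09% of all genes).

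The family is concentrated among transcripts of low GC content. When the tested genes were split into 4 equal groups at 46.0%, 50.7% and 55.3% GC, 91, 38, 35 and 43 Zfp genes fell into them from low to high. The median log2 fold changes of the Zfp genes were −0.36, −0.14, 0.09 and 0.35, and those of all genes −0.34, −0.18, 0.00 and 0.31. In each GC group the Zfp genes thus had nearly the median of all genes. In the lowest GC group, 16.5% of Zfp genes were lower and 4.40% higher, against 19.4% and 11.2% of all genes. In the highest GC group 18.6% of 43 Zfp genes were higher (24.8% of all genes) and 0 were lower by limma, where 6.71% of all genes were (1 at an unadjusted p under 0.05, and 0 by edgeR and by DESeq2). With the GC and length trends removed, 5 of the 43 were lower and 2 higher, 11.6% and 4.65%, against 17.6% and 16.5% of all genes of that GC group. Within the lowest GC group the 51 KRAB-like genes had a median of −0.63, with 12 lower and 2 higher, and the 40 others a median of −0.22, with 3 lower and 2 higher. In IL-33 replicate 1, which had no GC trend, these medians were −0.16 and 0.03, against 0.02 for all genes of that GC group. There 37.3% of the KRAB-like genes and 32.5% of the others lay below the lowest PBS library, against 37.5% of all genes of the group. Above the highest PBS library lay 19.6% and 37.5%, against 41.1%. These differences were not tested.

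**Figure D4:**
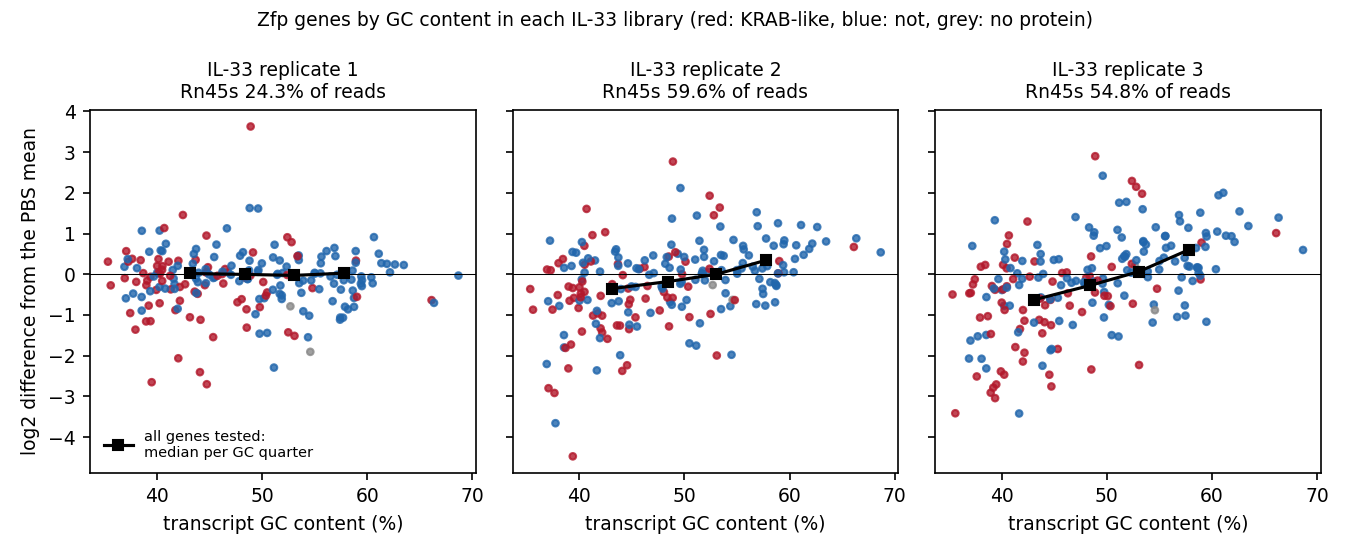
Log2 difference from the mean of the PBS libraries (vertical axis) against GC content of the transcript in percent (horizontal axis) for 207 Zfp genes, in each IL-33 library. Red points are KRAB-like genes, blue points the others, grey points genes without a translated protein, and black squares the medians of all tested genes in each of the 4 GC groups. The squares are level in IL-33 replicate 1 and climb in replicates 2 and 3.

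With each library's trends with GC content and length removed, limma called 24 Zfp genes higher and 28 lower, 11.6% and 13.5%, against 18.6% and 17.2% of all genes, with a median of −0.04. Of the 45 genes called before, 34 were still called and none changed direction. KRAB-like genes then had 7 higher and 14 lower (9.21% and 18.4%) and a median of −0.16. The genes without the stretch had 17 higher and 13 lower (13.2% and 10.1%) and a median of 0.03. Because the trend removal takes out whatever differs between libraries along GC content, a change in expression that follows GC content is removed with it.

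Each IL-33 library was also read apart, against the range of the PBS libraries. In IL-33 replicate 1, 82 Zfp genes lay below the lowest PBS library and 61 above the highest (39.6% and 29.5%, against 39.8% and 40.8% of all genes). In replicate 2 the counts were 96 and 85 (46.4% and 41.1%, against 43.8% and 41.2%), and in replicate 3 they were 92 and 77 (44.4% and 37.2%, against 44.8% and 43.2%). Below-PBS shares were near the background in every library, and above-PBS shares were lower than the background in replicates 1 and 3. For KRAB-like genes, 40.8%, 63.2% and 59.2% lay below PBS in replicates 1, 2 and 3, and 21.1%, 26.3% and 17.1% above. All 3 IL-33 libraries were above PBS for 35 Zfp genes and below for 42 (16.9% and 20.3%, against 25.5% and 24.7% of all genes).

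Genes of one genomic cluster did not always move together. With gaps of at most 250 kb between neighbours, 91 of the genes formed 18 clusters of 3 or more. In the cluster of 9 on chromosome 17 (32765496 to 33631779), which holds Zfp101 and Zfp563, 8 genes had a log2 fold change below 0 and 2 were called lower (median −0.65). All 4 genes of a cluster on chromosome 9 (20345136 to 20521417) lay below 0, and Zfp426 (−0.93) and Zfp266 (−1.06) were called lower. Zfp560 of this cluster and Zfp101 of the cluster of 9 passed the filter through PBS alone, so their falls were set by the selection. The cluster of 10 on chromosome 7 (127233061 to 127885996) with Zfp747, Zfp764 and Zfp689 had 7 genes above 0 and 3 called higher (median 0.31). A second cluster on chromosome 17 (21383748 to 21588699) went both ways, with Zfp51 (−1.67) and Zfp53 (−1.18) called lower and Zfp948 (1.23) called higher. Neighbours can share sequence, and 11 of the 207 genes had over 20% of their 50-base words in transcripts of another gene, only Zfp747 and Zfp764 of them called.

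**Figure D5:**
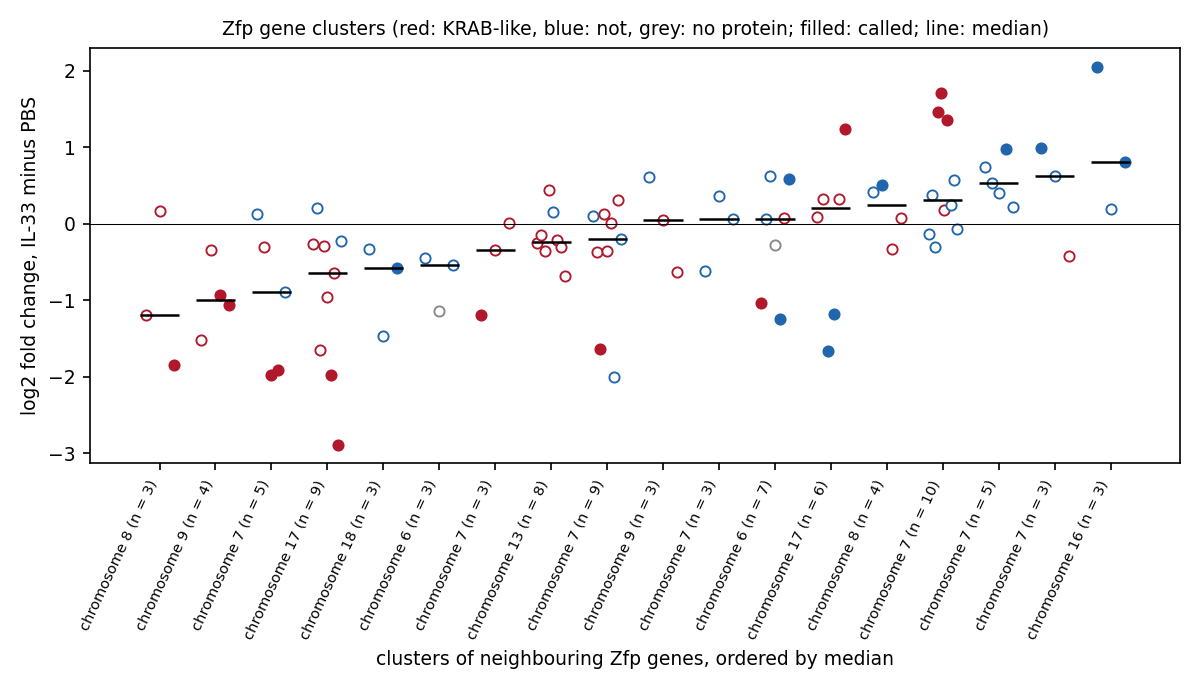
Log2 fold change (vertical axis, IL-33 minus PBS) of 91 Zfp genes in 18 clusters of neighbours (horizontal axis, ordered by the cluster's median, shown as a line). Red points are KRAB-like genes, blue points the others, grey points genes without a translated protein, and filled points are called. Clusters at the left hold mostly genes below 0, some of which passed the filter through PBS alone. Several clusters hold genes on both sides of 0.

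The co-repressor that KRAB proteins recruit was measured through a list of 34 tested genes of the KAP1 pathway, of which 5 were higher and 9 lower (14.7% and 26.5%, against 17.4% and 14.4% of all genes tested, median −0.15). Trim28, which encodes KAP1, was at 759, 719 and 634 in PBS and 675, 957 and 1124 in IL-33 and was not called (0.36 on the log2 scale, SE 0.21, limma adjusted p = 0.224). Without IL-33 replicate 1, however, it was called higher (0.56, adjusted p = 0.00713, limma), and with the GC and length trends removed it was at −0.12. Setdb1, the histone methyltransferase that KAP1 brings in, was at 273, 311 and 341 in PBS and 210, 175 and 176 in IL-33, with no overlap (−0.72, SE 0.18, adjusted p = 0.0212, limma). It lost its call without IL-33 replicate 2 (−0.67) or PBS replicate 2 (−0.71) or 3 (−0.64).

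Other lower genes of the list were Setdb2, a related methyltransferase gene, Uhrf1, a factor of maintenance DNA methylation, and Cbx5, which encodes heterochromatin protein HP1-alpha. Setdb2 had 39, 49 and 51 reads in PBS replicates 1 to 3 and 8, 0 and 1 in IL-33 replicates 1 to 3, a ratio 8.88-fold lower after scaling that its selection set in direction, since it reached the filter of 10 in PBS alone (exact 95% bounds of 4.54 and 19.8, for counting error alone). Uhrf1 had a log2 fold change of −1.63 (SE 0.31) and Cbx5 of −1.30 (SE 0.30), the latter not called without PBS replicate 2 (−1.19) or 3 (−1.33). The higher genes included Rbbp7, a histone chaperone (1.43, SE 0.31), and Mbd3 of the NuRD complex (0.99, SE 0.31), though Mbd3 was at −0.05 with equal totals. Rbbp7 lost its call without PBS replicate 3 (1.31), and Mbd3 without IL-33 replicate 2 (0.95) or 3 (0.68), with any 1 PBS library dropped, and with the GC and length trends removed (0.34). Dropping IL-33 replicate 1, 2 or 3 gave 8 and 14, 4 and 4, or 4 and 6 genes of the list higher and lower. Dropping PBS replicate 1, 2 or 3 gave 4 and 6, 3 and 2, or 2 and 2. The shares of all genes called higher and lower were 28.3% and 28.2%, 8.99% and 7.26%, and 14% and 11.5% with the IL-33 libraries dropped in that order, and 10.7% and 6.24%, 7.6% and 3.82%, and 6.7% and 3.36% with the PBS libraries.

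Zinc finger genes with other family names were read beside the Zfp genes. Of 75 tested, 11 were higher and 9 lower (14.7% and 12%, against 17.4% and 14.4% of all genes tested, median −0.09). Prdm1, which encodes the repressor Blimp-1, rose from 18.6, 18.9 and 11.2 in PBS to 193, 174 and 147 in IL-33, a clear separation (3.35, SE 0.28). Zbtb12 (1.65) and Zbtb10 (1.63) were also higher. Zbtb16, which encodes the transcription factor PLZF, fell from 1004, 1199.8 and 1054 in PBS to 333, 386 and 463 in IL-33 (−1.47, SE 0.18), and Ikzf2, which encodes Helios (−1.44), and Zscan26 (−1.33) were lower. Zbtb12 and Ikzf2 lost their calls without IL-33 replicate 2 or PBS replicate 2 or 3, and Zscan26 with any library but IL-33 replicate 1 dropped. For the counts of higher and lower genes in this list, dropping IL-33 replicate 1, 2 or 3 gave 17 and 19, 5 and 2, or 9 and 7. Dropping the first PBS library gave 6 and 4, and dropping either other gave 5 and 1, beside the same shares of all genes as for the KAP1 list.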

How the data were processed

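RNA of 6 libraries (3 IL-33, 3 PBS) was sequenced after ribosomal RNA depletion with a directional kit, per the labels' protocols. The authors deposited normalized counts, here treated as a signal: gene counts divided by a size factor per library. HISAT2, HTSeq, DESeq2 and mm10 are named in the submitters' processing notes; for versions, annotation and strand setting the sources used here give nothing, so reads of overlapping or antisense genes may not be told apart. All values (100%) were whole multiples of 1 read per library, within 0.1 of a read, which gave the reads recovered (8218303 to 10785521 per library).

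Genes at 10 or more in at least 3 libraries (10544 of 23420) were tested on log2(value + 1) with limma 3.58.1 (R 4.3.3, empirical Bayes with a mean-variance trend, Benjamini-Hochberg over the genes tested, two-sided). Fold changes are differences of mean logs on this scale, and for low genes they can differ from the ratio of counts in either direction. The count test edgeR 4.0.16 and DESeq2 1.42.0 were run on the recovered reads as alternatives. Leaving out a library kept the same tested genes. GC content and transcript length came from GENCODE vM21, to which 22994 of the genes matched (1257 by an older symbol), and each library's trends were removed with splines of 5 degrees of freedom in 10436 genes. Fingers and KRAB-like stretches were counted in GENCODE coding sequences translated here, in place of the RefSeq proteins that had been planned; a looser KRAB pattern was added after seeing the data. Promoters are from RefSeq. The scripts were checked on simulated data.

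The 207 genes and all lists, the KAP1 pathway, other zinc finger genes and cell type markers, were chosen with earlier results of these data known. Zfp genes named are the 8 called ones with the largest fold change in each direction among those with a mean of at least 20. The most abundant per kb and the genes at the limit of the filter are also named. Genes named from the KAP1 and other zinc finger lists are called ones with the largest fold changes in each direction, plus Trim28 and Setdb1. Other genes, such as those named in clusters, were chosen after their values were seen. Some results for single genes are not reported here.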

Additional observations from a re-analysis of the deposited data

How the results depend on the processing

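Over the alternatives, 686 results for single genes kept their direction and side of the threshold, 124 lost their call, 9 gained one and 3 reversed. The reversals were all with equal totals, where Mbd3 was at −0.049, Zfp217 at −0.96 and Zfp869 at −0.53; this scaling moves the median of all genes down. No called Zfp gene passed the threshold with the other sign under any setting. Counts below are given as higher and lower. Of all genes, 2.5% and 50.1% were called with equal totals and 9.02% and 33.9% without Rn45s in the totals. With the Rn45s covariate the shares were 8.67% and 6.09%, and without 1 library they were 6.7% to 28.3% and 3.36% to 28.2%. Such shares are not given here for the filter at 50, quantile normalization or removal of the GC trend alone. With equal totals there were 2 and 120 Zfp genes (median −1.11), 1 and 53 KRAB-like genes, 1 and 65 Zfp genes without the stretch, 0 and 21 KAP1 pathway genes and 1 and 43 other zinc finger genes. Without Rn45s in the totals these were 8 and 61 (median −0.50), 27 KRAB-like lower, 3 and 33, 3 and 15, and 6 and 23. With the Rn45s share as a covariate they were 6 and 12, 2 and 5, 4 higher without the stretch, 2 and 3, and 6 and 2. The 5 lower KRAB-like genes of 76 were then near the background. IL-33 replicate 2 alone against PBS, assumed to vary as PBS does, gave 37 and 55 (median −0.021), 27 KRAB-like lower, 30 and 28, 8 KAP1 pathway genes higher, and 18 other zinc finger genes lower. IL-33 replicate 3 alone gave 53 and 61, 32 KRAB-like lower, 44 and 29, 10 and 15, and 20 and 23; IL-33 replicate 1 alone gave 15 lower without the stretch. A filter at 50 gave 11 Zfp genes lower (median 0.062), 3 and 6 KRAB-like and 5 lower without the stretch, with fewer genes tested. The median was −0.025 by edgeR, −0.024 by DESeq2 and −0.030 with the GC trend removed, and that removal, with or without length, gave 13 lower genes without the stretch. Quantile normalization gave 2 KAP1 pathway genes higher. Except where construction shows it, the cause was not tested. Leaving out 1 library at a time gave 4 to 44 Zfp genes higher and 5 to 54 lower (median −0.12 to −0.056), 2 to 7 and 3 to 29 KRAB-like, 2 to 37 and 2 to 25 without the stretch, 2 to 8 and 2 to 14 of the KAP1 pathway, and 5 to 17 and 1 to 19 other zinc finger genes.

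Whether replicate numbers pair the libraries is not known. The correlations of same-numbered libraries' deviations from their group mean were 0.05, 0.24 and −0.16, and those of differently numbered ones ran from −0.28 to 0.24. With 3 libraries per group, whose deviations depend on each other, these values cannot decide it. The replicate block gave 16 Zfp genes higher and 19 lower and 5 other zinc finger genes lower, against 15.4% higher and 12.3% lower of all genes. With the GC and length trends removed as well it gave 10 KRAB-like genes lower, for which the share of all genes is not given. Depth limits the low genes: 3 reads are worth 2.10 to 2.70 normalized counts in PBS and IL-33 replicate 1, and 4.61 and 5.08 in IL-33 replicates 2 and 3.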
